A study of Homo sapiens with 9 samples.

Results

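The genes described here encode chaperones of the endoplasmic reticulum (ER) and components of the unfolded protein response. They come from a list of 38 human genes chosen by function: stress sensors, folding factors, degradation factors and translocation channels. The list was made with earlier results of these data known, so its shares beside those of all genes are descriptions and no test. Of the 38 genes, 20 were named under the listed symbol in the platform's probe table. Another, VIMP, was named under its current symbol SELENOS, which gave 21 measured genes among 14884 genes in all. The other 17 listed genes have no probeset that carries their symbol alone in that table and were not analysed here: HSPA5, HSP90B1, DNAJB9, DNAJB11, DNAJC3, PDIA3, PDIA4, PDIA6, P4HB, HERPUD1, EDEM1, EDEM2, EDEM3, SYVN1, OS9, PPP1R15A and PPP1R15B. The cells were ZR-75-1, an established breast cancer line that carries the estrogen receptor, and all 9 cultures received the lipid reagent Lipofectamine RNAiMAX. Mock cells received the lipid with no RNA, negative control cells received it with 50 nM of a non-specific RNA, and mimic cells with 50 nM of a mature miR-150-5p mimic. Medium was replaced at 24 h and RNA was taken at 48 h, with 3 arrays per group. The labels do not say whether the 3 transfections of a group came from separate experiments; the p-values therefore rest on the spread among these arrays, which may be technical, in 1 cell line. The amount of miR-150-5p in the cells was not analysed here.

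Proteins that enter the secretory pathway pass through the SEC61 channel into the ER, where chaperones, lectins and oxidoreductases fold them. When unfolded protein accumulates, the membrane sensors IRE1 (encoded by ERN1), PERK (EIF2AK3) and ATF6 activate transcription factors that raise chaperone and degradation genes, and PERK slows translation. Proteins that fail to fold are drawn back across the membrane by the SEL1L and derlin complexes and destroyed by the proteasome. Secretory epithelial lines such as luminal breast cancer cells use this machinery constantly.

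Levels are deposited log2 intensities after RMA, so a difference of 1 on this scale is a doubling. Each gene has its own probes, so levels of different genes are compared only roughly, with the median of all genes. The median over all probesets lay between 4.22 and 4.27 on every array. Mimic replicate 2 and mock replicate 3 correlated no better with their own group (0.9940 and 0.9935) than with the other groups (0.9941 and 0.9937). Of 10 luminal breast cancer markers 9 were measured, and all 9 lay above the median of all genes (5.44), with group means from 6.94 to 12.1. The 8 measured markers of fibroblasts, leukocytes and endothelium, of 18 listed, all lay below it, with group means from 2.34 to 3.91. In bulk RNA, fewer cells with a transcript and less of it per cell cannot be told apart.

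Comparing mimic with negative control RNA asks what the miR-150-5p mimic does beyond the transfection of any small RNA. No measured member passed the threshold: 0 of 21 had an adjusted p under 0.05 in limma's test over all genes, where 0.551% of all genes did. The components leaned in different directions. The chaperone partners SDF2L1 and MANF and the lectin chaperone CANX stood lower by 0.22, 0.18 and 0.19, while the degradation factors SEL1L and DERL1 and the translocon component SEC62 stood higher by 0.42, 0.21 and 0.21. These 6 genes are all members with an unadjusted p under 0.05. They are 28.6% of the 21, against a background of 12.6% of all genes (3 higher, background 6.18%, and 3 lower, background 6.39%). The shares of all genes given here and below include dim genes, whereas all 21 members lie above the median level. Shares among brighter genes alone were not computed, and the part of brightness in the differences was not tested. The median change of the members was -0.03, against 0.01 over all genes; it was -0.054 with arrays centred on their medians and between -0.05 and -0.01 with 1 array left out. Members needed an estimated change between 0.37 (DERL3) and 0.65 (DERL2) to pass at their own spread and at the p cut of this fit. That cut moves with the setting, and a true shift of such a size would not pass every time. Smaller true shifts may thus be missed with 3 arrays per group.

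Against mock, the control without RNA, 0 of 21 members passed as well, where 0.302% of all genes did. SDF2L1, MANF and CANX were again lower, by 0.20, 0.18 and 0.21, and DERL2, a derlin of the degradation complex, was higher by 0.36. These 4 members had an unadjusted p under 0.05 (19% of the members, 10.7% of all genes; 1 higher, background 5.87%, and 3 lower, background 4.84%). The median of the members was -0.0063, against 0.01 over all genes. Both comparisons share the 3 mimic arrays, so they are not separate tests of the mimic. Between the negative control and mock, 0 of 21 members passed, 0 of all 14884 genes did (0%), and 1 member, SEL1L, had an unadjusted p under 0.05 and was lower, against 4.18% of all genes in either direction, 2.04% lower and 2.14% higher. The members' median there was 0.02, and 12 of 21 had a positive estimate, as did 52.8% of all genes.

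**Figure D1:**
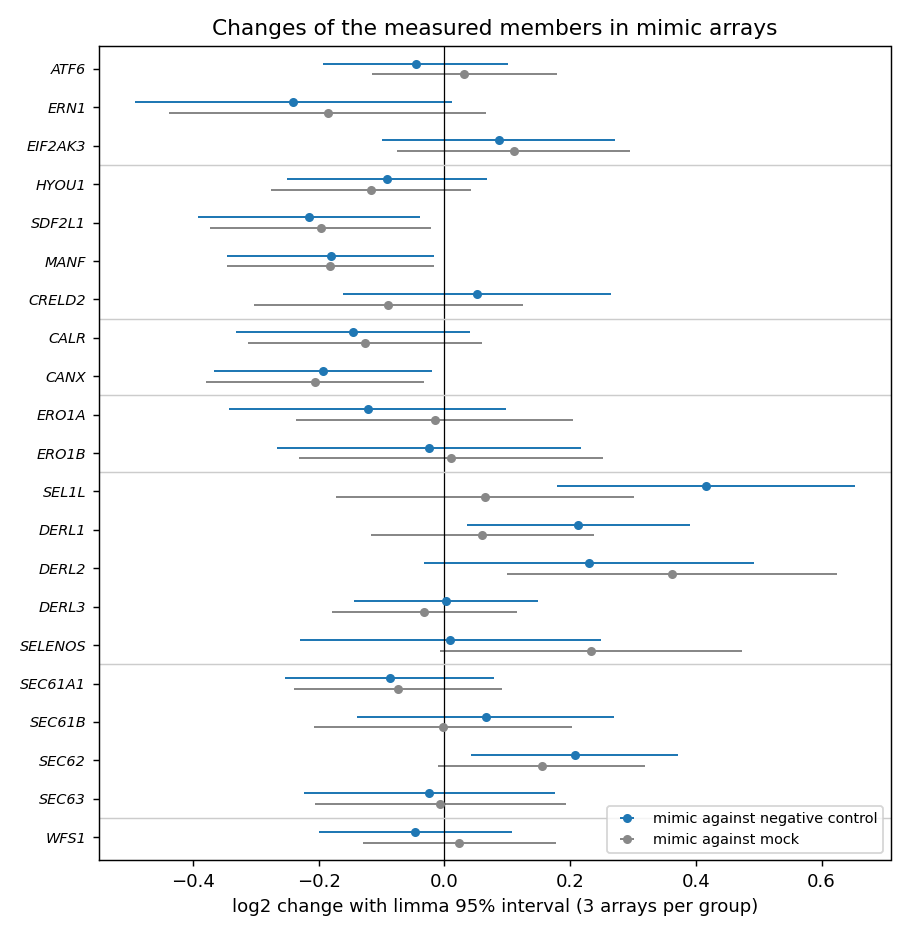
Log2 change of each of the 21 measured members (rows, grouped by role with grey lines between groups) in mimic arrays against negative control (blue) and against mock (grey). Points are limma estimates from 3 arrays per group and bars are 95% intervals; SDF2L1, MANF and CANX lie below 0 with both intervals, while SEL1L lies at 0.42 against the negative control and at 0.06 against mock.

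The 3 sensors did not separate the groups. ERN1, the IRE1 kinase and endonuclease that splices the XBP1 transcript, read 6.01, 5.94 and 6.08 on the mock arrays, 6.08, 6.01 and 6.10 on the negative control arrays and 5.87, 6.04 and 5.56 on the mimic arrays. Mimic replicate 2 lay within the controls and replicate 3 far below them, so the groups overlap. Its change was -0.24 ± 0.11 (SE, n = 3 arrays per group) against the negative control, with a limma adjusted p = 0.423, and -0.11 without mimic replicate 3; against mock it was -0.19. EIF2AK3, the PERK kinase that phosphorylates the translation factor eIF2, had 7.23, 7.24 and 7.45 on the mimic arrays and from 7.08 to 7.27 on the 6 controls. It differed by 0.09 ± 0.08 from the negative control and by 0.11 ± 0.08 from mock. ATF6, a transcription factor released from the ER membrane by proteolysis, stayed between 9.23 and 9.39 on all 9 arrays, with differences of -0.05 ± 0.07 and 0.03 ± 0.07. Of these 6 estimates, none had a 95% interval that left out 0.

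Among the soluble chaperones and their partners, the lower values in mimic cells were most regular for SDF2L1, a partner of the ER chaperone BiP (encoded by HSPA5) and its DNAJ cofactors. Its levels were 7.40, 7.23 and 7.21 in mock, 7.35, 7.27 and 7.27 in negative control and 7.07, 7.004 and 7.17 in mimic arrays. All 3 mimic arrays lay below all 6 control arrays. Its change was -0.22 ± 0.08 against the negative control (1.16-fold lower, 95% interval from -0.39 to -0.04, limma adjusted p = 0.303) and -0.20 ± 0.08 against mock (adjusted p = 0.421). MANF, a secreted ER stress protein that binds BiP, read 6.01, 6.13 and 6.01 in mock, 6.02, 6.07 and 6.06 in negative control and 5.82, 5.98 and 5.81 in mimic arrays. Again every mimic array was below every control, although mimic replicate 2 was only just so. The change was -0.18 ± 0.07 against either control (adjusted p = 0.358 and 0.425).

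HYOU1 and CRELD2 showed less. HYOU1, an Hsp70-related chaperone that exchanges nucleotide on BiP, was at 8.69, 8.78 and 8.80 in mimic, 8.85 on each negative control array and 8.96, 8.89 and 8.77 in mock. The mimic arrays lay below the negative control but overlapped mock replicate 3. Its differences were -0.09 ± 0.07 and -0.12 ± 0.07. A second, dimmer HYOU1 probeset gave 0.13 ± 0.15 against the negative control, the opposite sign, and the mean of both probesets gave 0.02. CRELD2, an ER protein with disulfide isomerase activity, overlapped in all comparisons, with 0.05 ± 0.10 against the negative control and -0.09 ± 0.10 against mock.

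CALR and CANX, the calreticulin and calnexin lectins, bind the trimmed sugars of new glycoproteins and hold them until they are folded. CANX read 10.69, 10.61 and 10.82 in mock, 10.66, 10.72 and 10.71 in negative control and 10.44, 10.60 and 10.47 in mimic arrays. Every mimic array was below every control, with mimic replicate 2 closest to mock replicate 2. The change was -0.19 ± 0.08 against the negative control (adjusted p = 0.352) and -0.21 ± 0.08 against mock (adjusted p = 0.382). CALR was at 11.08, 11.36 and 11.30 in mimic and between 11.34 and 11.43 on the 6 controls, so that mimic replicate 2 overlapped them. Its change was -0.15 ± 0.08 against the negative control and -0.13 ± 0.08 against mock, and without mimic replicate 1 these were -0.06 and -0.04. SDF2L1, MANF and CANX are thus the 3 of 21 members (14.3%) whose mimic arrays all lay below all 6 controls, which held for 3.46% of all genes, and 0 of 21 lay above all 6, which held for 4.22%.

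**Figure D2:**
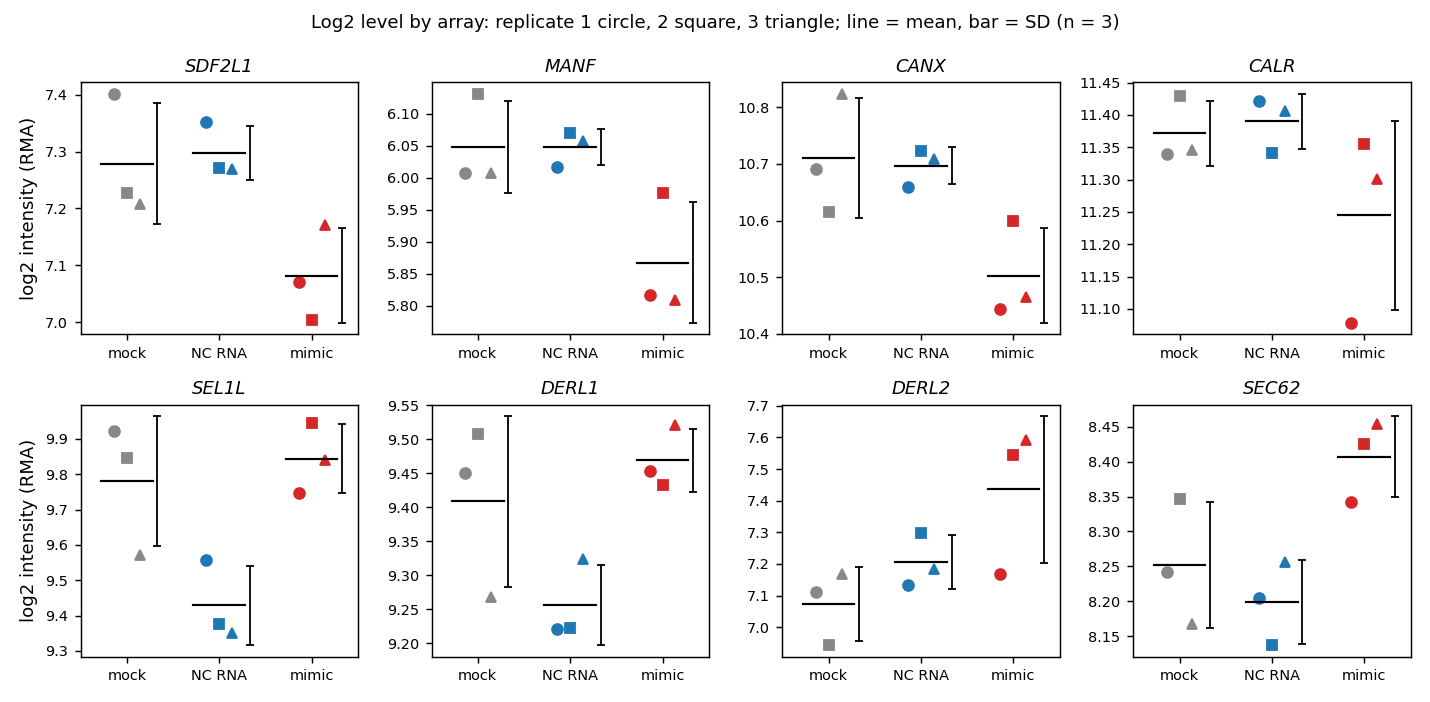
Log2 intensity of 8 members on each array, by group (x axis: mock, negative control RNA as NC RNA, mimic); marker shape gives the replicate number, the horizontal line the mean and the bar the SD of 3 arrays, and each panel has its own axis range. SDF2L1, MANF and CANX have all mimic arrays below all controls, whereas SEL1L and DERL1 in mimic overlap mock replicates 1 and 2, and mock replicate 3 lies near the negative control arrays.

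Several of the folding genes share a promoter element of the ER stress response. Members and elements were both chosen for their known part in that response, so a higher share among members is no separate finding. The ER stress response element (ERSE) is read by ATF6 together with the factor NF-Y, and is spelled CCAAT, any 9 bases, CCACG. A shorter form, ERSE-II, is ATTGG, any 1 base, CCACG, and TGACGTGG is bound by ATF6 and XBP1. Both strands of the 300 bases around each start (250 before, 50 after, RefSeq, GRCh38.p14) were searched. ERSE was present in 9 of 41 promoters of the members (7 of 35 genes: CALR, CANX, CRELD2, ERO1B, HSP90B1, HSPA5 and PDIA6), against 0.0769% of all 35116 promoters. ERSE-II was found for 3 genes (HERPUD1, HYOU1 and SDF2L1), against 0.0541% of all promoters, and TGACGTGG for 2 (HYOU1 and SEC62), against 0.729%. A single pair of different elements overlapped in the whole table, in HYOU1, where TGACGTGG runs into an ERSE-II. HYOU1 holds a further ERSE-II in reverse, at bases 79 to 69 before the start, whose window is not shown. The windows shown are from measured members with an element, without ERO1B, and were picked with their changes known. They include members with negative estimates (SDF2L1, CANX, CALR and, by its brighter probeset, HYOU1) and SEC62 with a positive one. A link between elements and changes was not tested. Capitals mark the element, on the strand of the gene, with up to 40 bases on each side and nothing beyond the start.
SDF2L1, ERSE-II in reverse, plus strand, chr22:21642074-21642164: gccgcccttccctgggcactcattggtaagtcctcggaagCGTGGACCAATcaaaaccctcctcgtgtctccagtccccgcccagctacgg
CANX, ERSE, plus strand, chr5:179698738-179698836: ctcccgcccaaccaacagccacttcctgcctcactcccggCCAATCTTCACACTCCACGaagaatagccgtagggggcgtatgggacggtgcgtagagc
CALR, ERSE in reverse, plus strand, chr19:12938359-12938442: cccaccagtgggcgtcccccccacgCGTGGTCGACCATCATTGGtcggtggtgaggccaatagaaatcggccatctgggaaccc
HYOU1, ERSE-II in reverse, minus strand, chr11:119057340-119057430: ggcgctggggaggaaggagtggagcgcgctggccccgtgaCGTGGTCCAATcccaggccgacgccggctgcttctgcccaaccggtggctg
CRELD2, ERSE in reverse, plus strand, chr22:49918514-49918612: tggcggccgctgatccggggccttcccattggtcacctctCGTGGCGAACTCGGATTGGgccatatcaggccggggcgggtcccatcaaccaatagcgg
SEC62, TGACGTGG in reverse, plus strand, chr3:169966750-169966806: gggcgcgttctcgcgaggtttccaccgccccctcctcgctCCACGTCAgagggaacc

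The 6 measured members with an ERSE or ERSE-II did not move as a block. SDF2L1, CANX, CALR and, by its brighter probeset, HYOU1 had a negative change against both controls. CRELD2 had 0.05 and -0.09, and ERO1B, whose window is not shown, had -0.03 and 0.01. MANF and ERN1 leaned lower too, ERN1 by -0.24 and -0.19, and held none of the 3 spellings in this window. A match is a description of letters and no measurement of binding.

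The disulfide enzymes ERO1A and ERO1B, oxidases that recharge protein disulfide isomerases, varied more within mock than between groups. ERO1A read 7.55, 7.40 and 7.79 in mock, 7.67, 7.66 and 7.73 in negative control and 7.59, 7.63 and 7.48 in mimic arrays. The mimic arrays lay below the negative control, but inside the range of mock. Its change was -0.12 ± 0.10 against the negative control (adjusted p = 0.655) and -0.02 ± 0.10 against mock, the latter 0.09 without mock replicate 3. ERO1B was highest on mock replicate 3 (5.69) and between 5.30 and 5.58 on the other 8 arrays, with differences of -0.03 ± 0.11 and 0.01 ± 0.11.

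The widest difference of any member was that of a degradation gene in both comparisons, SEL1L against the negative control and DERL2 against mock. It was not a trait of the whole group: DERL3 and SELENOS differed least of all members from the negative control (0.0026 and 0.0097). The differences also depended on the control. SEL1L, the adaptor that joins substrate recognition to the HRD1 ubiquitin ligase, read 9.92, 9.85 and 9.57 in mock, 9.56, 9.38 and 9.35 in negative control and 9.75, 9.95 and 9.84 in mimic arrays. All mimic arrays lay above all negative control arrays. Mimic replicates 1 and 3 lay below mock replicates 1 and 2, and mimic replicate 2 above both. Mock replicate 3 lay just above the highest negative control. The change was 0.42 ± 0.11 against the negative control (1.33-fold, 95% interval from 0.18 to 0.65, limma adjusted p = 0.136, between 0.0550 and 0.385 over 17 alternatives). Against mock it was 0.06 ± 0.11 (interval from -0.17 to 0.30) and -0.04 without mock replicate 3. The negative control itself lay 0.35 ± 0.11 below mock (adjusted p = 0.976 and unadjusted p = 0.00813), with no overlap between the 2 groups; 8.1% of all genes had such a separation there.

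The derlins form the membrane path through which misfolded proteins leave the ER. DERL1 had the same arrangement as SEL1L on a smaller scale: 9.45, 9.51 and 9.27 in mock, 9.22, 9.22 and 9.32 in negative control and 9.45, 9.43 and 9.52 in mimic arrays. Mock replicate 3 sat among the negative control arrays. Its change was 0.21 ± 0.08 against the negative control (adjusted p = 0.309), 0.06 ± 0.08 against mock, and -0.01 against mock without mock replicate 3. DERL2 read 7.11, 6.94 and 7.17 in mock, 7.13, 7.30 and 7.19 in negative control and 7.17, 7.54 and 7.59 in mimic arrays. Mimic replicates 2 and 3 lay above all controls, and replicate 1 within them. The change was 0.23 ± 0.12 against the negative control (adjusted p = 0.459; 0.36 without mimic replicate 1) and 0.36 ± 0.12 against mock (adjusted p = 0.307).

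DERL3 and SELENOS completed the group. DERL3, a derlin best known from secretory cells, stayed between 5.53 and 5.65 on all arrays and differed by 0.0026 ± 0.07 and -0.03 ± 0.07. SELENOS, a selenoprotein that ties derlins to the p97 ATPase, read 5.71, 5.42 and 5.54 in mock, 5.75, 5.82 and 5.78 in negative control and 5.67, 5.69 and 6.01 in mimic arrays. Here the negative control stood above mock with no overlap, by 0.22 ± 0.11, and mimic arrays lay on both sides of it. The mimic differed by 0.01 ± 0.11 from the negative control and by 0.23 ± 0.11 from mock (adjusted p = 0.482). All 5 degradation genes thus had a positive estimate against the negative control and 4 of 5 against mock, where 53.4% and 53.9% of all genes did; DERL3 and SELENOS turned negative against the negative control when arrays were centred on their medians.

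In all, 8 of 21 members (38.1%) had no overlap between mimic and negative control arrays, against 16.4% of all genes: HYOU1, SDF2L1, MANF, CANX and ERO1A lower (background 8.01%), SEL1L, DERL1 and SEC62 higher (background 8.42%). Against mock there were 4 (19%, background 12.7%): SDF2L1, MANF and CANX lower (background 5.44%) and DERL2 higher (background 7.21%). Between negative control and mock there were 2 (9.52%, background 8.1%), SEL1L lower (3.33%) and SELENOS higher (4.77%).

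**Figure D3:**
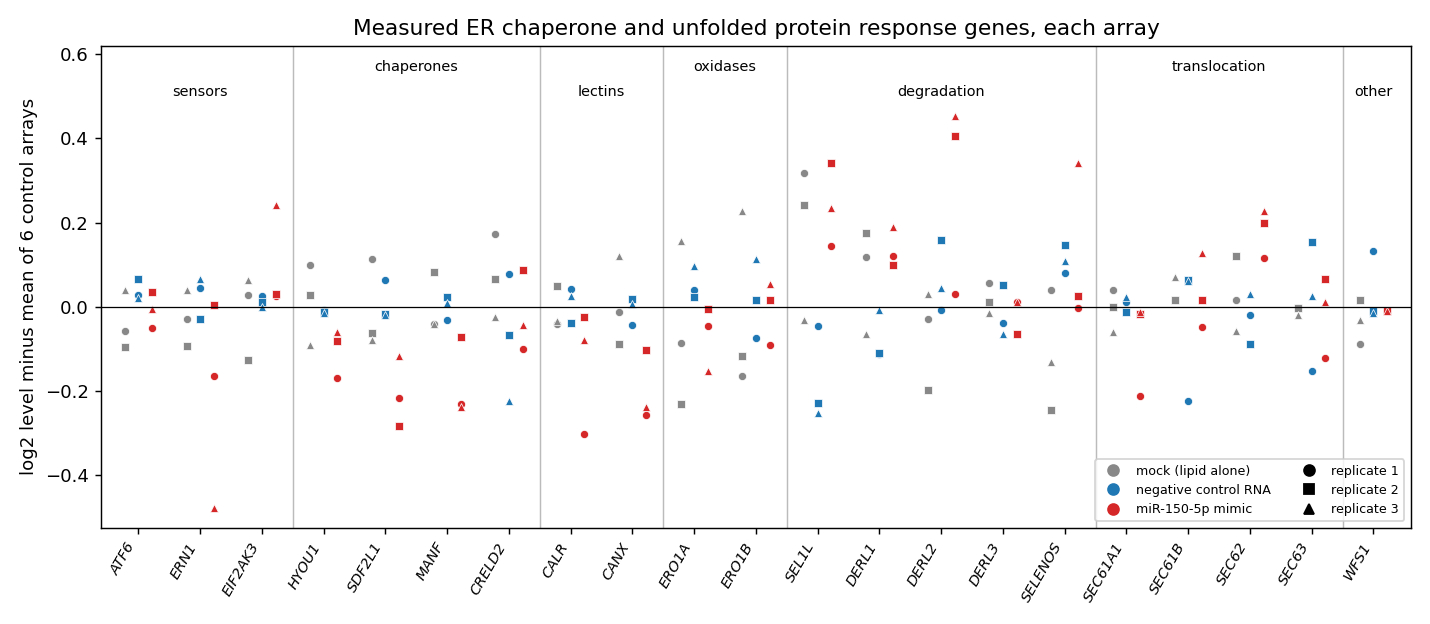
Level of each of the 21 members on each array as the log2 difference from the mean of the 6 control arrays (y axis), with members grouped by role along the x axis; colour gives the group and marker shape the replicate. SDF2L1, MANF and CANX have red points below all others, and ERN1, CALR and DERL2 have a single mimic array apart from the other 2.

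Of the translocation genes, SEC62 differed most. SEC62 and SEC63 are membrane partners that help the SEC61 channel take in finished chains. SEC62 read 8.24, 8.35 and 8.17 in mock, 8.21, 8.14 and 8.26 in negative control and 8.34, 8.42 and 8.45 in mimic arrays, so that the lowest mimic array was level with the highest mock array. Its change was 0.21 ± 0.07 against the negative control (1.15-fold, adjusted p = 0.288) and 0.15 ± 0.07 against mock (adjusted p = 0.503). A second, dimmer SEC62 probeset gave 0.54 ± 0.16 and 0.19 ± 0.16, and the mean of both probesets gave 0.37 against the negative control (adjusted p = 0.133, the lowest of its alternatives, which reached 0.499). SEC61A1, the channel's pore subunit, was at 10.26, 10.46 and 10.46 in mimic and between 10.42 and 10.52 on the controls, a difference of -0.09 ± 0.07 and -0.07 ± 0.07, of which -0.02 and -0.0085 remained without mimic replicate 1. SEC61B, a small subunit, and SEC63 overlapped in all comparisons, with estimates between -0.07 and 0.07.

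WFS1, the ER membrane protein wolframin that takes part in calcium balance, read 9.16, 9.27 and 9.22 in mock, 9.38, 9.24 and 9.24 in negative control and 9.24 on each of the 3 mimic arrays. The 3 mimic values are identical in the deposited table, so its spread there is 0, and it was the only member of which this held in any group. It differed by -0.05 ± 0.07 from the negative control and by 0.02 ± 0.07 from mock.

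By array, the role groups did not shift to the same degree in every mimic replicate. The 4 soluble chaperones lay on average 0.18, 0.09 and 0.115 below the mean of the 6 control arrays on mimic replicates 1, 2 and 3, and the lectins 0.28, 0.06 and 0.16 below. The 5 degradation genes lay 0.06, 0.16 and 0.25 above it on the same arrays, and control arrays reached 0.10 above it (mock replicate 1). For the chaperones control arrays reached 0.06 below it (negative control replicate 3), and for the lectins 0.03 below it (mock replicate 1). Of the mimic arrays, replicate 1 was thus lowest for chaperones, lectins and degradation genes alike, and its mean over all 21 members was -0.08, against 0.03 and 0.02 on replicates 2 and 3; over all genes the means of the 3 arrays were -0.01, -0.0029 and 0.04. The part of single arrays in these shifts was not tested.

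**Figure D4:**
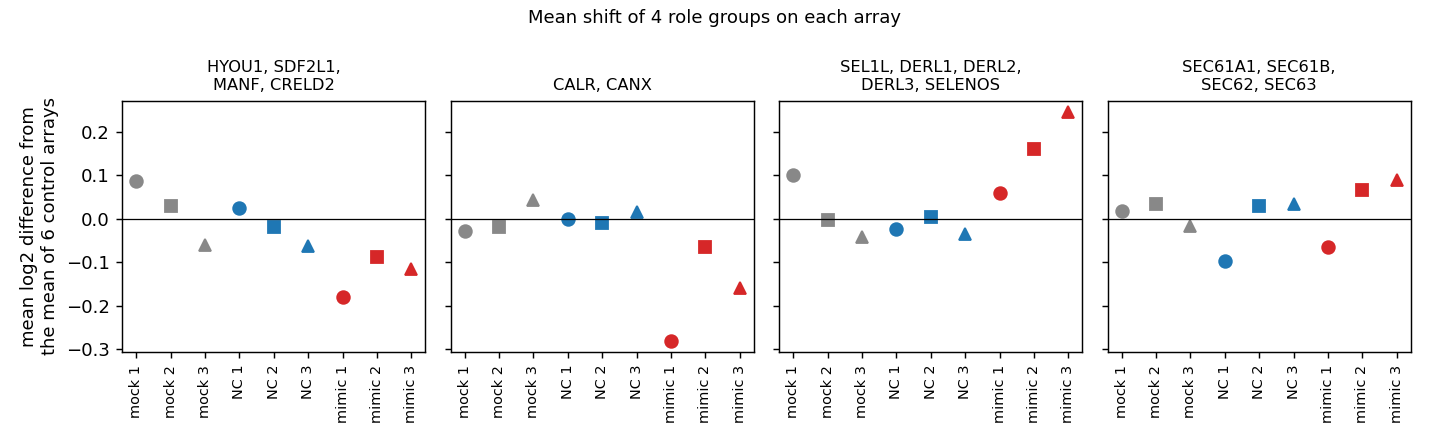
Mean log2 difference from the mean of the 6 control arrays for 4 role groups (panels, with their genes) on each of the 9 arrays (x axis); grey is mock, blue negative control RNA (NC), red mimic, and each point is the mean over the genes of a group on 1 array. Lectins on mimic replicate 1 lie lowest (-0.28) and degradation genes on mimic replicate 3 highest (0.25).

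Of 112 further pathway genes on lists of neighbouring functions, 73 were measured and 0 rose and 0 fell in any of the 3 comparisons, with 5 higher and 5 lower at an unadjusted p under 0.05 against the negative control (background 12.6% of all genes) and 7 and 2 against mock (10.7%). Closest was XBP1, the transcription factor that IRE1 activates by splicing and a gene of luminal cells as well, whose promoter also holds an ERSE. It read 11.04, 11.07 and 11.02 in mock, 10.97, 10.95 and 11.01 in negative control and 11.18, 11.42 and 11.46 in mimic arrays. The mimic arrays lay above all 6 controls, a change of 0.38 ± 0.08 against the negative control (limma adjusted p = 0.0793) and 0.31 ± 0.08 against mock (adjusted p = 0.200). Among the other 8 measured luminal markers, named here after their values were seen, ESR1, the estrogen receptor, rose by 0.46 ± 0.07 (adjusted p = 0.0295) and 0.45 ± 0.07 (adjusted p = 0.0407), and TFF1 differed by 0.38 ± 0.14 (adjusted p = 0.303) and 0.08 ± 0.14 from negative control and mock. The other 6 differed by -0.09 to 0.16 from the negative control and by -0.07 to 0.14 from mock, and the part of these markers in the XBP1 values was not tested. With an intensity trend or with dim genes left out XBP1 passed against the negative control (adjusted p = 0.0286 and 0.0272, over a range up to 0.232). CREB3L2, an ER-anchored factor related to ATF6 and named after its values were seen, was lower by 0.42 ± 0.11 (adjusted p = 0.159). Spliced and unspliced XBP1 were not told apart here.

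Of 8 measured ATF4 and CHOP targets, 7 had a negative change against the negative control (median -0.09), as did 46.5% of all genes, and 6 against mock (median -0.08, 46.1% of all genes). The negative control itself had a positive change from mock for 7 of the 8 (median 0.09, 52.8% of all genes). STC2, a secreted glycoprotein named after its values were seen, was the gene with a positive change against the negative control (0.15 ± 0.09), and against mock it was higher by 0.27 ± 0.09 (adjusted p = 0.342). The lowest p was that of ASNS, asparagine synthetase, which was at 5.71, 5.87 and 6.29 in mimic and between 6.44 and 7.06 on the controls. Its change was -0.70 ± 0.18 (adjusted p = 0.154) and, against mock, -0.54 ± 0.18 (adjusted p = 0.335). Of 17 other folding factors the median was -0.02, with the lowest p for GPX8, an ER peroxidase (-0.29 ± 0.12, adjusted p = 0.387). Of 14 other degradation factors 10 had a positive change against the negative control (median 0.04, 53.4% of all genes) and 10 against mock (median 0.07, 53.9% of all genes), with FAF2, which recruits p97 to the ER, at 8.51, 8.67 and 8.68 in mimic and between 8.34 and 8.45 on the controls. FAF2 differed by 0.20 ± 0.07 (adjusted p = 0.282) and 0.26 ± 0.07 (adjusted p = 0.201) from negative control and mock. The widest change of this list against the negative control was a lower one among its 4 negative changes. It was that of NGLY1, named after its values were seen (-0.29 ± 0.12, limma adjusted p = 0.354, and -0.23 ± 0.12 against mock).

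Of 15 other translocation and signal peptide factors 11 had a positive change against the negative control (median 0.09) and 12 against mock (0.08), against 53.4% and 53.9% of all genes. SRPRA, the receptor subunit that docks ribosomes for secretion, read 9.88, 9.76 and 9.43 in mock, 9.39, 9.62 and 9.44 in negative control and 9.73, 9.94 and 10.12 in mimic arrays. Mock replicate 3 lay among the negative control arrays, as for DERL1. The change of SRPRA was 0.45 ± 0.13 (adjusted p = 0.216) and 0.24 ± 0.13 against mock (adjusted p = 0.568). TRAM2, a relative of a translocon protein, was above all controls in the 3 mimic arrays, by 0.24 ± 0.08 and 0.26 ± 0.08 (adjusted p = 0.263 and 0.278). The list had 4 negative changes against the negative control and 3 against mock. The lowest in both was SEC11C, named after its values were seen (-0.22 ± 0.14 and -0.29 ± 0.14, limma adjusted p = 0.544 and 0.493). Of 9 calcium, sensor and cell death partners the median was 0.05, with the lowest p for EIF2AK1, a heme-regulated kinase of eIF2 (0.16 ± 0.07, adjusted p = 0.405). Against mock their median was 0.12, and 3 of the 9 had an unadjusted p under 0.05, all higher (background 5.87%): EIF2AK1 by 0.20 ± 0.07, and, named after their values were seen, TMBIM6 by 0.20 ± 0.08 and BCL2L11 by 0.24 ± 0.09, with adjusted p between 0.361 and 0.439.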

How the data were processed

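RNA of 9 cultures was measured on Affymetrix Human Gene 2.0 ST arrays, 1 sample per array, after biotin labelling by a FlashTag kit, per the labels. The deposited values are on a log2 scale and the authors made them with RMA, per the submitters' processing notes; for its version and the genome build: not given in the sources used here. The table holds 53617 probesets. Of these, 16098 carry 1 gene symbol through the platform's annotation, and 37519 carry no single symbol and are unnamed here. For the 779 genes with several probesets the brightest over the 9 arrays was used, giving 14884 genes, without a filter on dim genes; all 21 members lie above the median level. No further normalization was applied. limma 3.58.1 in R 4.3.3 (lmFit, eBayes) fitted 1 mean per group over all 9 arrays, with Benjamini-Hochberg adjustment over all genes, two-sided, threshold 0.05; errors are its moderated standard errors. An exact permutation test of 3 against 3 arrays cannot give a p below 0.1 and was not used. The number of arrays limits the precision. The fit was tested on simulated data with added changes larger than that of any member. That test therefore does not bear on changes of the members' size. Alternatives were 3 other fits, a replicate block, a filter, another probeset rule, 2 normalizations and 9 left-out arrays. Values on every array are given for members without overlap, for the lowest p of each role and for others where they help; of other pathway genes the lowest p of each list is named. Members and lists were chosen with earlier results of these data known. Promoters come from RefSeq (GRCh38.p14) and cover all listed members but DERL1, DERL3 and PDIA3.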

Additional observations from a re-analysis of the deposited data

How the results depend on the processing

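Of the 21 measured members 0 passed an adjusted p under 0.05 in limma in any of the 17 alternatives, in each of the 3 comparisons, and their lowest adjusted p was 0.0550, for SEL1L against the negative control with only genes above the median level tested. 13 members kept the sign of their change in all 17 alternatives against the negative control and 13 against mock. XBP1, whose alternatives were chosen after seeing the data, passed against the negative control with an intensity trend (adjusted p = 0.0286) and with only the brighter genes tested (0.0272), with a range from 0.0272 to 0.232 over its 17 alternatives. Over all genes, 82 passed against the negative control; the count was 181 with an intensity trend, 8 in a fit on the 6 arrays compared, 263 among genes above the median level and between 7 (without mimic replicate 1) and 121 (without mock replicate 3) with 1 array left out. The 45 against mock became 78, 1, 102 and between 1 and 10 in the same order. The labels number the replicates alike in each group, but same-numbered arrays did not deviate together in every pair (correlations from -0.06 to 0.13), so the numbers were not taken as pairing; with the replicate block 16 genes passed against the negative control and 3 against mock, with 0 members. The members' median change against mock was -0.054 after repeated quantile normalization and between -0.03 and 0.02 with 1 array left out; for the negative control against mock it was 0.04 with arrays centred on their median, -0.0099 after quantile normalization and between -0.0050 and 0.02 with 1 array left out. With the mean of all named probesets the sign turned for HYOU1 (0.018) in mimic against negative control. With arrays centred on their median the sign turned for DERL3 (-0.026), SELENOS (-0.019) in mimic against negative control and for MANF (0.020), CANX (0.0073) in negative control against mock. After repeated quantile normalization the sign turned for DERL3 (-0.0074) in mimic against negative control and for ATF6 (-0.016), ERO1B (-0.0082), WFS1 (-0.029) in mimic against mock and for SDF2L1 (-0.010), SEC61A1 (-0.0061), SEC63 (-0.014), TRAM2 (-0.016) in negative control against mock. With 1 array left out, these changes against the negative control crossed 0: DERL3 from -0.021 to 0.037, SELENOS from -0.10 to 0.072, SEC61B from -0.030 to 0.11, WFS1 from -0.072 to 0.0024, SEC63 from -0.10 to 0.049, CRELD2 from -0.024 to 0.13, ERO1B from -0.071 to 0.023. With 1 array left out, these changes against mock crossed 0: ERO1B from -0.062 to 0.13, WFS1 from -0.0031 to 0.049, ERO1A from -0.10 to 0.090, SEL1L from -0.040 to 0.14, DERL1 from -0.010 to 0.11, SEC61B from -0.050 to 0.038, SEC63 from -0.047 to 0.047. With 1 array left out, these changes of negative control against mock crossed 0: HYOU1 from -0.076 to 0.019, ERO1B from -0.037 to 0.16, EIF2AK3 from -0.033 to 0.061, SDF2L1 from -0.016 to 0.080, MANF from -0.021 to 0.041, CANX from -0.060 to 0.044, SEC61A1 from -0.014 to 0.037, TRAM2 from -0.046 to 0.076, SEC61B from -0.12 to 0.028, SEC63 from -0.055 to 0.10, ASNS from -0.049 to 0.26. The cause of these movements was not tested. The table holds no background value or detection call, so a low level cannot be separated from background here.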

Other observations

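Identical deposited values recur between arrays: 8 of 21 members (38.1%) have the same log2 intensity on at least 2 of the 9 arrays, and 57.1% of all genes do. For WFS1 the value of the 3 mimic arrays (9.24) is also that of negative control replicate 2.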
